A study of Caenorhabditis elegans with 2 samples.

Results

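MicroRNA genes are the 261 genes that the Ensembl 115 annotation of the worm assembly WBcel235 gives the biotype miRNA on the 6 nuclear chromosomes, of 46890 nuclear genes in all. They were set against the binding sites of ZTF-3, a C2H2-type zinc finger protein, mapped by chromatin immunoprecipitation and sequencing (ChIP-seq). For each gene, the strongest deposited region with its summit within 500 bp of the gene body was taken, and its rank was read in each replicate. No measured value chose the genes. A gene was called clustered when another miRNA gene lay within 2000 bp on the same strand, and otherwise exonic, intronic or intergenic by its place in protein-coding genes.

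The single group holds 2 biological replicates, labelled 4 and 5, of whole Caenorhabditis elegans of strain OP614, mixed in sex and harvested as young adults at 58 h after synchronization by starvation at the first larval stage. The strain carries the unc-119(tm4063) mutation and the integrated transgene wgIs614, which holds ztf-3 fused to TY1, EGFP and 3xFLAG tags together with a rescuing copy of unc-119. The fusion was precipitated with an antibody against GFP, and 1 control alignment served for each list. No untagged strain and no second condition were analysed here, and signal from all tissues is mixed. The deposited files are region lists without read counts, so sequencing depth is unknown.

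A miRNA is transcribed as part of a longer primary RNA, which is cut in the nucleus to a hairpin and in the cytoplasm to a short duplex, of which usually one arm is loaded into an Argonaute protein. The loaded arm pairs with messenger RNAs mostly through its seed, the bases near its 5′ end, so genes with the same seed are grouped as a family. Many worm miRNA genes lie close together and can share a primary RNA, while others sit in introns of protein-coding genes. The annotated gene is in nearly all cases the hairpin, so the start of the primary RNA, and with it the promoter, is not marked. Only 4 of the 261 genes were annotated as longer than 150 bp, among them let-7 with its primary RNA of 1732 bp, and the median length was 95 bp. A mature product was annotated for 260 of the genes, F39B1.3 being the exception.

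The mature products below are those of the genes whose regions passed the authors' threshold, of the other members of the mir-51 family, and of 1 family member outside the threshold for mir-229 and for mir-80. Most of these genes have a product annotated from each arm of the hairpin, and 1 is shown, the one with the seed that groups the genes where there is such a seed. They were read from the RefSeq WBcel235 genome at the annotated coordinates, 5′ to 3′, with the seed, bases 2 to 8, in capitals. The 6 genes mir-51 to mir-56 share 1 seed although they lie at separate loci, and mir-8186.1 and mir-8186.2 have the same product because they are the opposite strands of 1 palindromic hairpin.
mir-51: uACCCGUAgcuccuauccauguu
mir-52: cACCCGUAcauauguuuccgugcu
mir-53: cACCCGUAcauuuguuuccgugcu
mir-54: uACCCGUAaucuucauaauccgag
mir-55: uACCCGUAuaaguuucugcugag
mir-56: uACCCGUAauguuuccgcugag
mir-55b: uAACCGAUagguuucugccgag
mir-229: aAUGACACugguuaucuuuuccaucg
mir-64: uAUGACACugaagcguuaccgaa
mir-73: uGGCAAGAuguaggcaguucagu
mir-74: uGGCAAGAaauggcagucuaca
mir-80: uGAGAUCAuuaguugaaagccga
mir-82: uGAGAUCAucgugaaagccagu
mir-8186.1: aCUGCUCAaaggacuuugcugc
mir-8186.2: aCUGCUCAaaggacuuugcugc

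The next sequences are the summits, with 50 bases on either side, of the 6 thresholded regions at miRNA genes, from the same genome, on the strand named. Capitals mark matches, on either strand, of the letters AGAGAC, of the letters ACGCAG or of the letters ACACAC, and overlapping matches run together. These letters were chosen because they are frequent at the thresholded regions as a whole, of which these 6 are a part, so a match is a description and not a bound site.
mir-229, III:2172036-2172136 (+ strand): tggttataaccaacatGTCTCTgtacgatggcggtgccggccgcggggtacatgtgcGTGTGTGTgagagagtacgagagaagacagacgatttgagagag
mir-51, IV:11026208-11026308 (+ strand): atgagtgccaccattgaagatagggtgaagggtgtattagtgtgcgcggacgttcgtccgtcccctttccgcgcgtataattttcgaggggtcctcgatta
mir-73 and mir-74, X:2368655-2368755 (+ strand): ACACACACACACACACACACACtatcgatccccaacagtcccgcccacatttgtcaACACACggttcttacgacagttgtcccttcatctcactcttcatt
mir-8186.1 and mir-8186.2, II:18962-19062 (+ strand): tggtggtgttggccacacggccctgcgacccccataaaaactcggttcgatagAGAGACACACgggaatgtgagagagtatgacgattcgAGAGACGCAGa
mir-54 and mir-55, X:13145323-13145423 (+ strand): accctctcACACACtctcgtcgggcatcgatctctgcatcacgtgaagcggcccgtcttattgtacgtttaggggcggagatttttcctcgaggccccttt
mir-80, III:8865551-8865651 (+ strand): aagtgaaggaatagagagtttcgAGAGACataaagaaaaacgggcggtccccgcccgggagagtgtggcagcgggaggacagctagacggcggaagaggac

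AGAGAC lay in 3 of the 6 windows, those of mir-229, mir-80 and mir-8186, and in 100 of all 534 thresholded windows (18.7%). ACACAC lay in 4 of the 6 windows against 94 of 534 (17.6%), and ACGCAG in 1 against 75 of 534 (14.0%). The mir-51 window held none of the 3. A perfect GT/CA run of at least 20 bp lay within 200 bp of the summit at mir-73 and at mir-229, against 35 of all 534 thresholded regions (6.55%). The median GC content of the 6 windows was 54.0%, against 48.5% over all thresholded windows and 41.6% over the 30000 pooled regions.

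A candidate region is any of the 30000 in the pooled list, which was made from both replicates and holds background together with binding. A thresholded region is one of the 534 that the authors kept after testing how well ranks repeat between replicates. These are the 534 strongest regions of the pooled list by signal. Being thresholded therefore does not show that a given region was strong, or listed, in both replicates. Signal is the authors' own strength score of a region, and rank 1 is the highest signal in a list. A candidate summit lay within 500 bp of 115 of the 261 miRNA genes (44.1%, exact binomial 95% interval 37.9 to 50.3%), against 40.7% of all nuclear genes. A thresholded summit lay within 500 bp of 10 (3.83%, 1.85 to 6.93%), against 1.83% of all nuclear genes. The 15363 piRNA genes, of which 0.104% had one, pull this background down; the share was 2.60% of ncRNA genes and 2.43% of protein-coding genes. The 10 genes became 2 at a distance of 200 bp, and 6 when the strongest regions of replicate 5 alone were used. The share over all nuclear genes was not set beside the count at 200 bp. Measured from the 5′ end alone, 9 genes had one (3.45%), against 1.20% of all nuclear genes. The intervals cover counting error only. The genes are not independent, because neighbours share regions, and the differences from the background were not tested.

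Counted by region, the 115 genes had 98 distinct strongest regions, of which 6 were thresholded (6.12%), against 1.78% of all pooled regions. Taking the strongest region of a gene favours high ranks, so the same was done for every gene, and 432 of 13738 distinct strongest regions of all nuclear genes were thresholded (3.14%). The share was 3.29% at protein-coding genes, 6.07% at ncRNA genes, 13.9% at tRNA genes and 20.3% at snRNA genes. The miRNA genes therefore lay nearer to protein-coding and ncRNA genes than to tRNA and snRNA genes in this measure. Their median signal of 32.8, with a range of 20.6 to 153, also lay nearer to the 32.2 of protein-coding genes than to the 45.8 of tRNA genes and the 42.0 of snoRNA genes. Most of these regions were weak by the authors' q-value. Only 13 of the 98 (13.3%) had q of at most 0.05, against 4.74% of all pooled regions and 100% of thresholded ones. The same share at the strongest regions of all nuclear genes was not set beside it. The part of taking the strongest region in this difference was not tested.

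**Figure D1:**
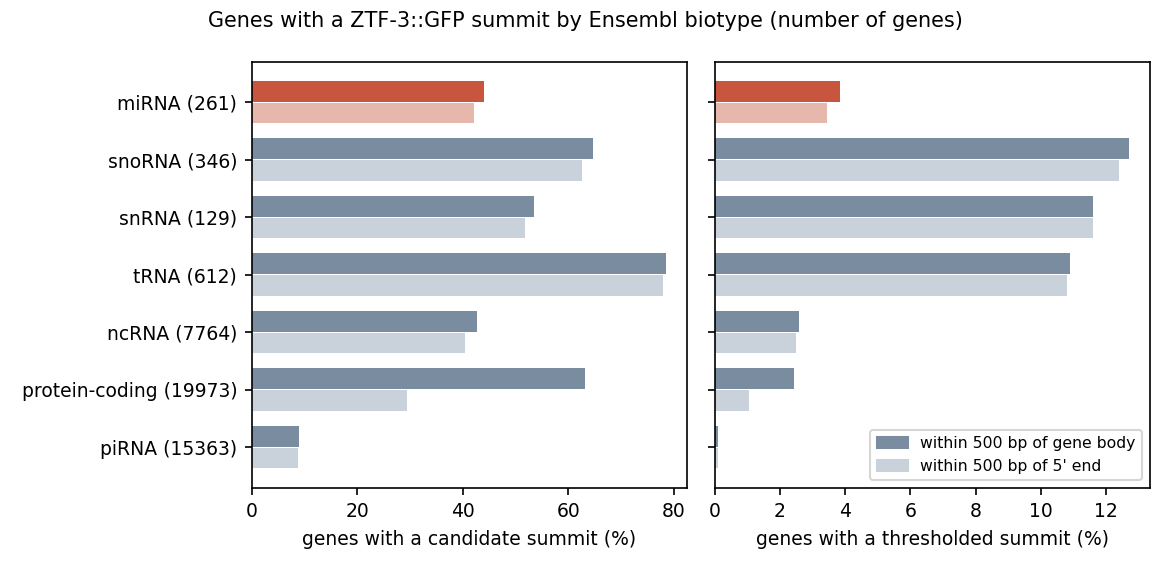
Share of genes with a candidate summit (left) or thresholded summit (right), in percent, for miRNA genes at the top and 6 other biotypes, with the number of genes in brackets. Dark bars count summits within 500 bp of the gene body and pale bars within 500 bp of the 5′ end; miRNA genes reach 44.1% and 3.83% by gene body, against 78.6% and 10.9% of tRNA genes.

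The strongest region at any miRNA gene lay 366 bp upstream of mir-229 (III:2172452-2172566, + strand), which sits in an intron of gcn-1, on the same strand as this gene for a regulator of translation. Its signal was 97.0 in replicate 4, rank 104, and 56.4 in replicate 5, rank 41. In the pooled list the signal was 153 and the rank 72, with −log10 q of 2.48, the highest value the list holds. Both replicates therefore placed it among their 534 strongest regions, with summits at III:2172100 and III:2172042. The next genes on the same strand are mir-64, mir-65 and mir-66, which share its seed. The strongest region within 500 bp of these 3 was a different one, downstream of the cluster, with a pooled signal of 22.6 and rank 24503, listed in replicate 5 at rank 14209 and not in replicate 4. The summit upstream of mir-229 lay 762 bp from mir-64 and 916 bp from mir-65. The remaining member of the seed group, mir-63, had no candidate summit within 500 bp, the nearest being 1447 bp away.

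The mir-51 family is expressed broadly and is needed for embryonic development. All 6 members had a candidate region and 3 had a thresholded one. Among the other seed groups of 4 or more genes with any region, those of mir-2 and mir-44 also had a region at every member, 4 of 4 each, and none of these was thresholded. Those groups are not separate cases, since mir-43 and mir-44, mir-250 and mir-61, and mir-797 and mir-247 each share a region. The 6 genes of the mir-51 family lie at 3 loci, so its count also rests on fewer independent regions than genes. A region 146 bp upstream of mir-51 (IV:11026013-11026112, − strand) had a signal of 65.1 in replicate 4, rank 354, and 28.2 in replicate 5, rank 318. Pooled, it had 82.7 and rank 376, and with mir-229 it was the only miRNA gene region among the 534 strongest of both replicates. The annotated hairpin of mir-53 lies next upstream on the same strand, and its own region had a pooled signal of 37.8, rank 3903 in replicate 4 and no listing in replicate 5.

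At mir-54, mir-55 and mir-56 (X:13144691-13145094, − strand, in an intron of F09A5.3 on the opposite strand) the replicates placed their strongest regions at different ends of the cluster. Replicate 4 had its strongest summit at X:13145347, upstream of mir-54, with a signal of 67.0 and rank 325. Replicate 5 had its strongest summit at X:13144445, downstream of mir-56, with a signal of 36.8 and rank 128, and a further one at X:13144698 with 24.8 and rank 517. The pooled list followed replicate 4 in rank, with 77.9 and rank 467 upstream and 53.2 and rank 1581 downstream. The thresholded region at mir-54 and mir-55 is the upstream one, and no region of replicate 5 contained its summit. The downstream region, which is the strongest for mir-56, had rank 8925 in replicate 4. The annotated gene mir-55b overlaps mir-55 on the other strand and shares its thresholded region, 543 bp from its own 5′ end.

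The region at mir-52 (IV:14034008-14034107, + strand), the remaining locus of the family, fell just outside the threshold. Its summit lay inside the gene, 7 bp from the 5′ end, with a signal of 57.8 in replicate 4, rank 517, and 18.8 in replicate 5, rank 1561. Pooled, it had 72.6 and rank 582. A second pooled region, outside the 500 bp limit, had its summit at IV:14033227 with a signal of 63.7 and rank 863. The lowest thresholded region of the whole list and the first one outside it both had a signal of 74.7, at ranks 534 and 535. The genes nearest to that limit were mir-80 inside, at rank 470, and mir-2 outside, at rank 565.

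**Figure D2:**
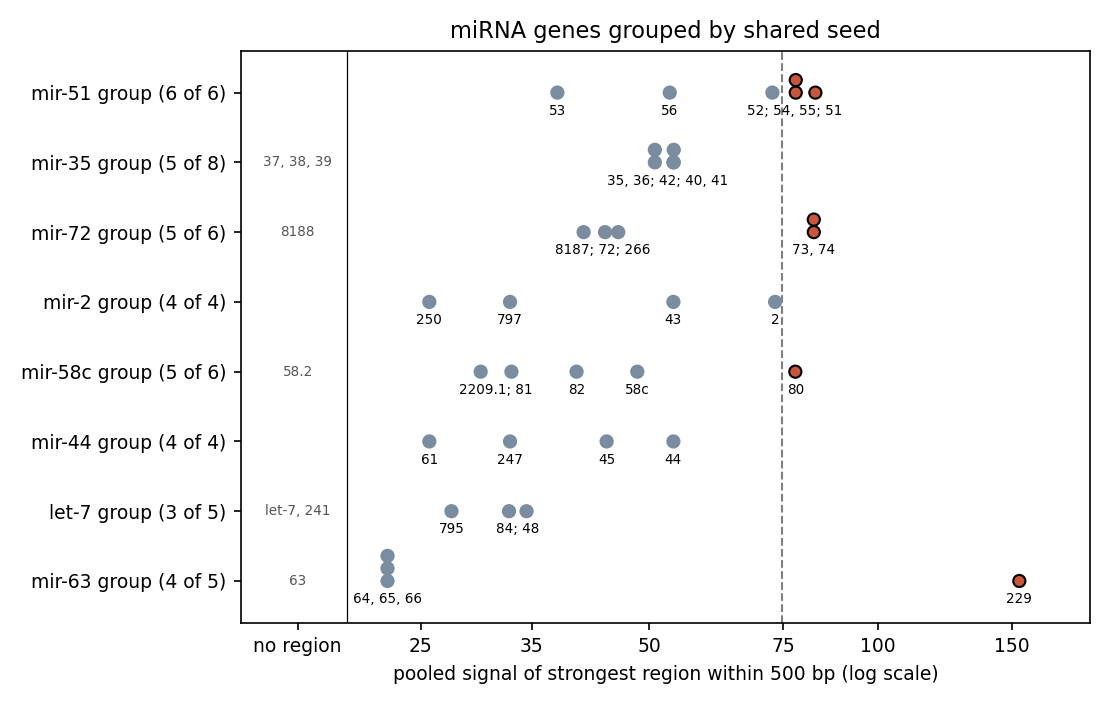
Pooled signal (log scale) of the strongest region within 500 bp of each gene, for the 8 groups of 4 or more genes that share a seed and have any region, ordered by median; red points with black rims are thresholded and numbers under the points name the mir genes. The mir-51 group has points for all 6 genes, at 37.8 to 82.7, while 3 of the 8 genes of the mir-35 group stand in the column without a region; the dashed line is the lowest thresholded signal, 74.7.

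The genes mir-73 (X:2368765-2368863, + strand) and mir-74 downstream of it share 1 seed with mir-72, mir-266, mir-8187 and mir-8188. A single region 60 bp upstream of mir-73, and 338 bp upstream of mir-74, had a signal of 80.3 in replicate 4, rank 191, and 16.2 in replicate 5, rank 2930. Replicate 4 thus ranked it far higher than replicate 5. Pooled, it had 82.3 and rank 386. Its summit also lay within 500 bp of linc-150 and of 3 ncRNA genes, and which of these genes the region belongs to was not tested. The regions of mir-72, mir-266 and mir-8187 had pooled signals of 43.7, 45.5 and 40.9 and were not thresholded, and mir-8188 had no candidate region.

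The mir-58 family is among the most abundant in the worm and acts on genes of the TGF-beta pathways that set body size and dauer entry. Its member mir-80 (III:8865270-8865367, − strand) had a region 234 bp upstream with a signal of 57.7 in replicate 4, rank 520, and 24.7 in replicate 5, rank 535. The ranks were close, and the replicate 5 one fell a single place outside the 534 strongest. Pooled, it had 77.8 and rank 470. The summit also lay within 500 bp of the ncRNA gene K01F9.6, and which of these genes the region belongs to was not tested. The other members had weaker regions, with pooled signals of 48.2 at mir-58c, 40.1 at mir-82, 39.5 at mir-58.1, 32.9 at mir-81 and 23.0 at mir-2209.2, while mir-2209.1 and mir-2209.3 shared 1 region of rank 12342. Among them mir-58.1, mir-2209.2 and mir-2209.3 were taken in by name, since no annotated product of theirs has the whole seed of mir-80, GAGAUCA. The seeds GAGAUCG of mir-58.1 and GAGAUGA of mir-2209.2 each differ from it in a single base. Of these 7 genes, mir-58c alone had a region listed in both replicates, at ranks 4950 and 2442. For mir-58.2 the nearest candidate summit was 543 bp away.

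The last thresholded region lay beside mir-8186.1 and mir-8186.2 (II:18637-18698), which overlap on opposite strands. Its signal was 60.2 in replicate 4, rank 454, and 17.9 in replicate 5, rank 1968, and pooled it had 78.7 and rank 450. The summit was 374 bp downstream of the 5′ end of mir-8186.1 and 315 bp upstream of that of mir-8186.2. It also lay 526 bp upstream of a transcription start site (TSS) of gmeb-1, a protein-coding gene. It is the only 1 of the 6 thresholded regions in a promoter window, which runs here from 1000 bp before a protein-coding TSS to 200 bp after it, and without such regions 8 of the 10 genes are left. Of all thresholded regions in the genome 46.8% lay in such a window, against 29.6% of the 98 regions at miRNA genes and 28.6% of all pooled regions.

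**Figure D3:**
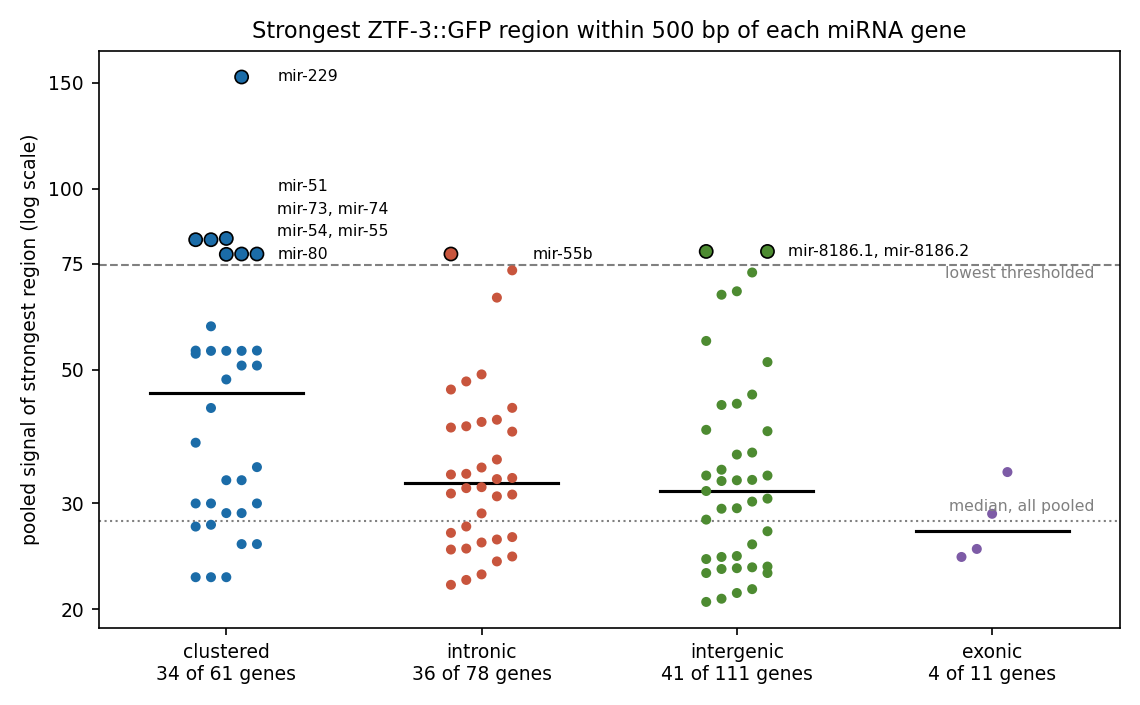
Pooled signal (log scale) of the strongest region within 500 bp of each miRNA gene that has one, by class; black bars are medians, black rims mark thresholded regions, the dashed line is the lowest thresholded signal and the dotted line the median of all pooled regions, 28.0. Clustered genes have a median of 45.7 and 7 thresholded genes, intronic genes 32.4 and 1, intergenic genes 31.4 and 2, and exonic genes 27.0 and none; genes that share a region appear as separate points.

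By genomic class, clustered genes had the highest share with a region. A candidate summit lay near 34 of 61 clustered genes (55.7%, 95% interval 42.4 to 68.5%), 36 of 78 intronic genes (46.2%, 34.8 to 57.8%), 41 of 111 intergenic genes (36.9%, 28.0 to 46.6%) and 4 of 11 exonic genes. A thresholded summit lay near 7 clustered genes (11.5%, 4.74 to 22.2%), 1 intronic gene (1.28%, 0.0325 to 6.94%) and 2 intergenic genes (1.80%, 0.219 to 6.36%). None of the 11 exonic genes had one, which allows a share of up to 27.3%, taking 3 genes as the limit that a count of 0 allows. The intervals of the classes overlap, both for candidate and for thresholded summits. Because 1 region can serve several genes of a cluster, the clusters were also counted once each, and 15 of 22 had a candidate summit (68.2%, 45.1 to 86.1%) and 5 a thresholded one (22.7%, 7.82 to 45.4%). The 200 genes outside clusters, counted by gene, had 81 (40.5%, 33.6 to 47.7%) and 3 (1.5%, 0.310 to 4.32%). Those 3 were mir-8186.1 and mir-8186.2, which share 1 region, and mir-55b, which has the region of mir-54 and mir-55. A cluster spans more DNA than 1 hairpin, and its part in the difference between clusters and other genes was not tested. By location alone, clustered or not, a thresholded summit lay near 4 of 97 intronic genes (4.12%) and 6 of 152 intergenic genes (3.95%). The class also turns on the distance used, since mir-80 and mir-51 are clustered only through neighbours more than 1000 bp away, and with that limit they count as intergenic.

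Introns on either strand were counted apart. Among intronic genes, 28 of 60 on the strand of their host had a candidate summit (46.7%), as did 8 of 18 on the opposite strand (44.4%). By chromosome the share with a candidate ran between 34% on IV, 17 of 50 genes, and 63.0% on III, 17 of 27. A thresholded summit was found near 5 of 74 genes on X, 2 of 49 on II, 2 of 27 on III and 1 of 50 on IV. It was found near none of 33 genes on chromosome I and none of 28 on V, which by the same limit of 3 genes allows shares of up to 9.09% and 10.7%. The share over all genes of each chromosome was not set beside these counts. A difference between chromosomes therefore cannot be read as particular to miRNA genes.

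The side on which the summits lay was counted along the strand of each gene. Among the 115 genes the strongest summit was upstream in 61 (53.0%, 43.5 to 62.4%), inside in 11 and downstream in 43. Upstream summits lay at a median of 238 bp before the 5′ end. The 10 thresholded genes share 6 regions, so the following counts are of genes and not of separate summits. For 8 of the genes the summit was upstream, at 60 to 449 bp. For the other 2, mir-8186.1 and mir-55b, it was downstream. Each of these 2 shares its region with an overlapping miRNA gene on the opposite strand, for which the same summit is upstream. The upstream share was 50.4% at snoRNA genes, 45.6% at piRNA genes, 35.3% at tRNA genes and 20.3% at snRNA genes, with the same 500 bp limit. Around the 5′ ends of the 222 loci, a cluster counting as 1 locus, 63 candidate summits lay in the 500 bp upstream, 52 in the next 500 bp downstream and 51 in the 500 bp after that. Beyond 2000 bp on either side the bins held 23 to 46, with a mean of 35.3. The upstream bin thus held more than any other of the 20, and it also held the most thresholded summits, 4, against 0 to 3 in the others.

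**Figure D4:**
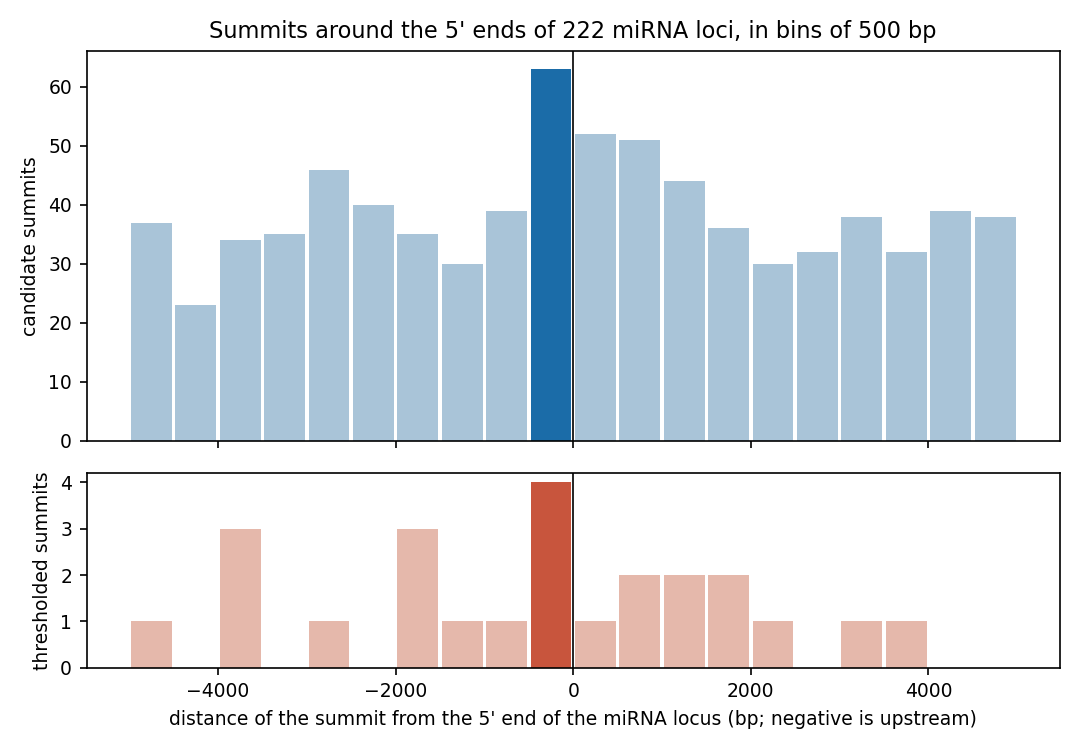
Number of candidate summits (top) and thresholded summits (bottom) by distance from the 5′ end of 222 miRNA loci, in bins of 500 bp, negative distances being upstream; a summit near several loci counts at each. The bin from −500 to 0 bp, in darker colour, holds 63 candidate and 4 thresholded summits, while bins beyond 2000 bp hold 23 to 46 and 0 to 3.

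The replicates matched for only part of these regions. A region counted as listed when the pooled summit lay inside a region of the replicate's own list. Of the 98 regions at miRNA genes, 48 were listed in both (49.0%, 38.7 to 59.3%), against 35.1% of all pooled regions and 40.7% of the strongest regions of all nuclear genes. A further 37 were listed in replicate 4 alone (37.8%, against 43.1% of all pooled regions), 8 in replicate 5 alone (8.16%, against 15.3%) and 5 in neither (5.10%, against 6.59%). By gene, 99 of the 115 had their region listed in replicate 4 and 66 in replicate 5. Spearman's rho between the replicates' ranks was 0.361 over the 48 regions and 0.333 over 10516 of all pooled regions; these points share the 2 libraries and the 1 control. Among the 534 strongest regions of both replicates were 2 of the 98 (2.04%), those at mir-229 and mir-51, against 1.03% of all pooled regions.

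Each replicate's own 534 strongest regions gave a different list of genes. Those of replicate 4 touched 12 miRNA genes (4.60%, against 1.79% of all nuclear genes), which are the 10 thresholded ones together with mir-2 and mir-52. Those of replicate 5 touched 6 (2.30%, against 1.68%), namely mir-229, mir-51, mir-54, mir-55, mir-55b and mir-56. The genes mir-73, mir-74, mir-80, mir-8186.1 and mir-8186.2 were thus touched by the strongest regions of replicate 4 and not by those of replicate 5.

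**Figure D5:**
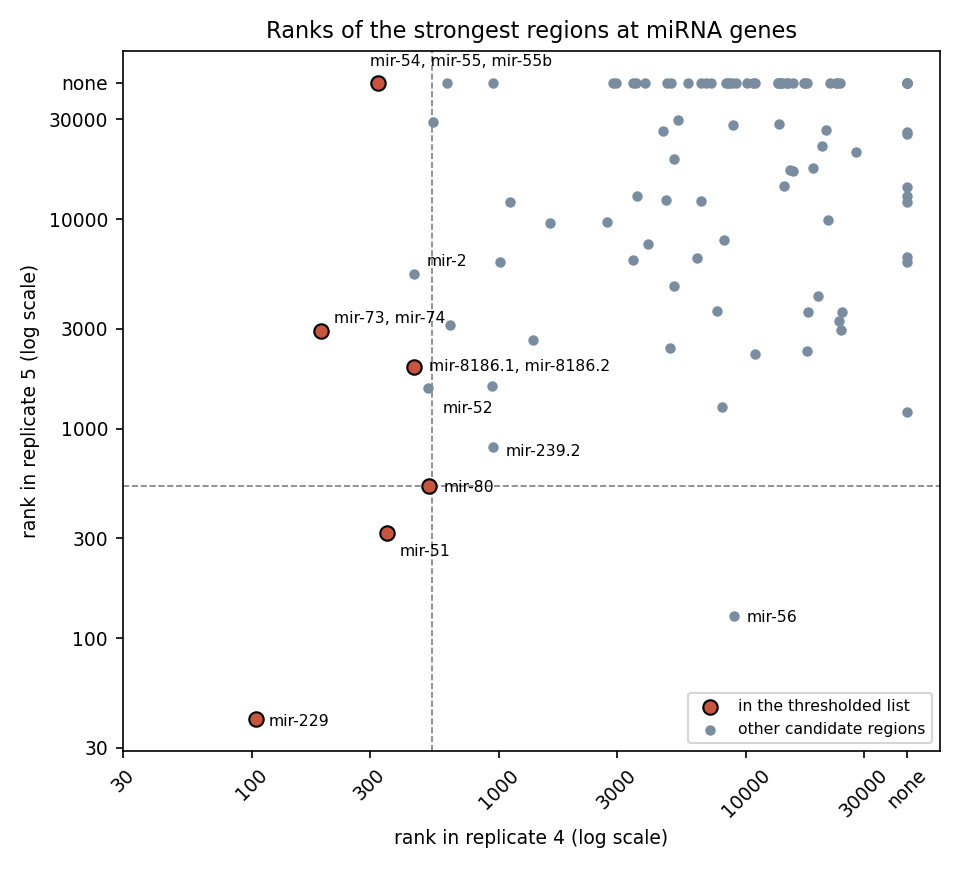
Rank in replicate 4 against rank in replicate 5 (both log scales, 1 being the strongest) of the strongest regions at miRNA genes, 1 point per region; "none" marks a replicate whose list has no region there, and dashed lines mark rank 534. The regions at mir-229 and mir-51 lie inside both lines, the region at mir-80 lies next to their crossing at ranks 520 and 535, and the region at mir-54 has no rank in replicate 5.

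Below the threshold, several genes with known functions had regions of middling strength. The gene mir-2, enriched in neurons and lying in an intron of ppfr-1, had a pooled signal of 73.2, with ranks 453 in replicate 4 and 5475 in replicate 5. A region 394 bp upstream of mir-239.2 had 67.5, and its ranks of 949 and 815 were close to each other. The summits at mir-4936 (66.7), in the promoter window of nduf-9, and at mir-1829.3 (59.1), beside a tRNA gene, lay inside the hairpins. That of mir-4929 (65.9) lay upstream of it in the promoter window of its host E01G4.3. The region at mir-77 had 55.8 and rank 619 in replicate 4 and was not listed in replicate 5. At mir-34, which takes part in stress responses, the region had 51.5 and ranks of 1012 and 6267.

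The mir-35 family is needed in the embryo, and its 8 genes lie at 2 loci. The 7 genes mir-35 to mir-41 form 1 cluster, with a region at each end and none within 500 bp of the hairpins of mir-37, mir-38 and mir-39 between. The region 317 bp upstream of mir-35 had a pooled signal of 50.8, with ranks 7991 in replicate 4 and 1270 in replicate 5. The region downstream of mir-41 had 53.8, with ranks 1114 and 12158, so the replicates again favoured opposite ends. It lies in the promoter window of Y62F5A.9, whose intron holds the cluster on the other strand. At the second locus mir-42, mir-43 and mir-44 share 1 upstream region with 53.8 and ranks of 1379 and 2643. None of the 8 mir-35 family genes had a thresholded summit, which by the limit of 3 genes allows a share of up to 37.5%. That limit takes the genes as independent, but they lie at only 2 loci, so it says little.

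Of the genes that time larval development, let-7 and lin-4 had no candidate summit within 500 bp, the nearest lying 1837 bp and 2740 bp away. The let-7 relatives mir-241 and mir-793 had none either, the nearest lying 589 bp and 2617 bp away, while mir-48 had 34.4 (ranks 24468 and 3596), mir-84 had 32.7, mir-794 had 27.6 and mir-795 had 27.4. The last 3 were listed in replicate 4 alone. The lin-4 relative mir-237 had 31.4, beside 2 tRNA genes. There was no candidate within 500 bp of lsy-6, which sets the left and right identity of a pair of taste neurons, of mir-1 of muscle, or of mir-124 of neurons, where the nearest lay 3912 bp, 1387 bp and 520 bp away. The glial gene mir-228 had 36.1, with ranks of 5127 and 4813, and mir-71, which acts in lifespan, had 27.4 with no listing in replicate 5. These worms are adults and all tissues are pooled, so a site used in few cells, or at another stage, may not be detectable here.

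Genes that make or use miRNAs, with miRNA targets and genes of developmental timing, were looked up by their protein-coding promoters. The list was drawn up with earlier results of these data known. Its shares are therefore descriptions, and a share above the background is no evidence about the pathway. The list held 34 genes, of which 33 were found by name, and 21 had a candidate summit in the promoter window (63.6%), against 35.6% of protein-coding genes. A thresholded summit was found at 3 of the 33 (9.09%), against 1.55% of protein-coding genes. They were nhl-2, a TRIM-NHL protein that aids miRNA silencing, with a pooled signal of 260, rank 12, and ranks of 13 in replicate 4 and 18 in replicate 5. The second was ain-1, the GW182 protein that binds Argonaute, with 182, rank 46, and ranks of 60 and 35. The third was lin-66, a gene of the developmental timing pathway, with 120, rank 128, and ranks of 168 and 151. All 3 were high in both replicates. In pooled signal nhl-2 and ain-1 exceeded every region at a miRNA gene, and lin-66 every one other than that of mir-229. Only lin-66 kept its summit within 500 bp upstream of a TSS.

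The next strongest pathway genes were lin-28 (54.2), an RNA-binding protein that blocks let-7 maturation, the miRNA Argonaute alg-1 (52.0), and lin-14 (50.6), a target of lin-4. They were followed by xpo-1 (46.9), a nuclear export receptor, and xrn-2 (45.2), a nuclease that degrades mature miRNAs. The processing enzyme drsh-1 had 39.0, and its partner pash-1 and the enzyme dcr-1 had no candidate summit in the window. The second miRNA Argonaute, alg-2, had a region of rank 12289 and ain-2, the paralogue of ain-1, one of 20.6. The members of this list were chosen with earlier results of these data known, and its difference from the background was not tested.

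The 6-mer AGAGAC, seen in 18.7% of all thresholded windows, was counted at the weaker regions too. It lay in the same window of 16 of the 98 (16.3%), against 5.31% of all pooled regions and 5.36% of the strongest regions of all nuclear genes. Among the 92 that were not thresholded it lay in 13 (14.1%), against 5.06% of all pooled regions outside the thresholded list. ACACAC lay in 14 of the 98 (14.3%), against 5.42% of all pooled regions, and in 10 of the 92 (10.9%), against 5.20%. ACGCAG lay in 4 of the 98 (4.08%), against 3.45%. The median GC content of the 98 windows was 44.6%, against 41.6% at the strongest regions of all nuclear genes. The part of GC content in these shares was not tested.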

How the data were processed

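ChIP-seq against GFP gave 1 group of 2 samples. Per the file headers, the authors derived the replicate and pooled lists from alignments with 1 control and the thresholded list from them by the irreproducible discovery rate; no source used here names the caller or aligner. The deposited signal is the authors' strength score per region, and the deposited −log10 q its significance. Both were used only to describe and rank regions within a list. Depth is unknown. Coordinates are 1-based on ce11 (WBcel235).

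Summits were joined to 46890 Ensembl 115 nuclear genes with pandas 2.3.3 and numpy 2.4.6 under Python 3.11.15, checked on simulated positions. Intervals are exact Clopper-Pearson at 95%, from scipy 1.17.1; for a count of 0 the limit given is 3 counts of the total. A RefSeq symbol was matched for 261 of 261 genes and used for all but 4, which keep the Ensembl name. The text names every gene with a thresholded summit, the 20 of highest signal, listed families and pathway genes; others were chosen after their values were seen. The members and lists were chosen with earlier results of these data known. No test between groups was possible. Alternatives changed the distance, the matching of regions, the classes, the threshold and the window, or left out a replicate.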

Additional observations from a re-analysis of the deposited data

How the results depend on the processing

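The count of miRNA genes at a thresholded summit, 10 as reported, changed with the distance, the threshold and the replicate. It was 2 at 200 bp (mir-51 and mir-73), 17 at 1000 bp, 1 with only the 267 strongest thresholded regions (mir-229), and 6 to 12 when either replicate was left out. Leaving out regions near tRNA, snoRNA, snRNA or rRNA genes kept all 10, and leaving out promoter regions kept 8. Regions near ncRNA genes, such as those at mir-73 and mir-80, were not left out. Counted by region rather than by gene, an alternative added after seeing the data, there were 6. The 115 genes with a candidate became 63 at 200 bp and 99 to 118 without a replicate. The 55 genes listed in both replicates became 33 when summits had to lie within 100 bp. The 2 genes strong in both became 4 with 1000 regions per list, and 1 with 267 per list, with summits within 100 bp, or with reciprocal overlap of 50%. Intergenic genes with a thresholded summit rose in number to 4, against 2, when clusters were limited to 1000 bp. Pathway genes fell to 1, against 3, with a 500 bp window. Regions with ACGCAG numbered 8 in a window of 100 bases on either side of the summit, against 4. At 200 bp, at 1000 bp and with 267 regions, the share over all nuclear genes was not set beside the counts of miRNA genes. A change at those settings therefore cannot be read as particular to miRNA genes. Why the counts moved was not tested. The other counts stayed within 1.5 times their reported value, among them 160 genes with a candidate at 1000 bp and 81 without promoter regions, against 115, and 24 regions with AGAGAC in the wider window, against 16. Among single genes, mir-55 and mir-55b had 31.0 at 200 bp, against 77.9. No paired analysis was possible because the study has 1 group. Depth, control signal and read counts were not analysed here, so no value has an error of its own.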

Other observations

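Genes numbered under 1000, most of them named in the earlier years of miRNA discovery, had regions more often than those with higher numbers, a split chosen after the values were seen. A candidate summit lay near 75 of 138 genes numbered under 1000 (54.3%, exact binomial 95% interval 45.7 to 62.8%) and near 40 of 123 genes numbered from 1000 (32.5%, 24.4 to 41.6%). The genes without a mir number, let-7, lin-4, lsy-6 and F39B1.3, were counted with those under 1000. A thresholded summit lay near 8 of the 138 and 2 of the 123, against 1.83% of all nuclear genes. Within the clustered class the candidate counts were 30 of 42 (71.4%) and 4 of 19 (21.1%). Within the intronic class they were 15 of 27 (55.6%) and 21 of 51 (41.2%), and within the intergenic class 28 of 63 (44.4%) and 13 of 48 (27.1%). Thresholded counts were 7 of 42 and 0 of 19 in the clustered class and 1 of 27 and 0 of 51 in the intronic class. They went the other way in the intergenic class, with 0 of 63 and 2 of 48. The genes with 2 annotated mature products had a candidate at 95 of 198 (48%), against 20 of 63 with fewer (31.7%). Low numbers also go with clusters, so these splits overlap, and none of these differences was tested.

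Several clusters had no candidate summit near any member, among them mir-2220 with mir-4807 to mir-4810.2 (6 genes) and mir-1018 with mir-4921 to mir-4925 (5 genes), neighbouring clusters on X. With a distance of 1000 bp, mir-4921 and mir-4923.1 gained a thresholded summit. The mir-2217 genes, which share a seed, had none at any of 4 copies with that seed.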
